A study of Mus musculus with 4 samples.

Results

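Plasma cells were taken from droplet single-cell RNA libraries of fracture callus as barcodes that carried the transcripts of an antibody-secreting cell. A barcode counted as a plasma cell when it had at least 200 genes, under 10% mitochondrial UMIs (unique molecular identifiers, each a counted transcript), at least 5 UMIs of Jchain, at least 3 each of Mzb1 and Xbp1, at least 1 of Derl3 and none of Siglech. The cells were thus chosen by these measured transcript counts, which are given below as a description only. By this rule 75 of 33698 filtered barcodes were plasma cells, out of 35274 deposited. All mice were 20-month-old C57BL/6J males with a fractured tibia, and the callus was taken on day 7 after treatment. The treated libraries, adenosine 1 and adenosine 2, came from mice given a microgel loaded with adenosine, and the control libraries, control 1 and control 2, from mice given the microgel without it. The tissue label reads bone marrow while the preparation describes minced callus, viable cells were sorted with propidium iodide after red cell lysis. Nothing in the labels tells whether 2 libraries under 1 treatment are different animals.

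Plasma cells are the end stage of the B cell lineage and secrete antibody at a high rate. Their secretory programme rests on the transcription factor XBP1, which expands the endoplasmic reticulum, and on loss of the factors that keep B cell identity, such as PAX5. Each cell carries a rearranged heavy chain, whose constant gene sets its class (IgM, IgG, IgA), and a rearranged light chain, kappa or lambda. IgM and IgA polymers are held together by the joining chain encoded by Jchain.

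The 47 plasma cells of adenosine 1 made up 0.530% of that library's filtered barcodes (exact binomial 95% interval 0.390 to 0.705%). Adenosine 2 held 13 plasma cells (0.148%, 0.0790 to 0.253%), control 1 held 12 (0.127%, 0.0658 to 0.222%) and control 2 held 3 (0.0452%, 0.00931 to 0.132%). Adenosine 1 thus contributed 62.7% of all plasma cells, and with 2 libraries a group these counts describe libraries and give no test of the treatment. The intervals cover counting error only.

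**Figure D1:**
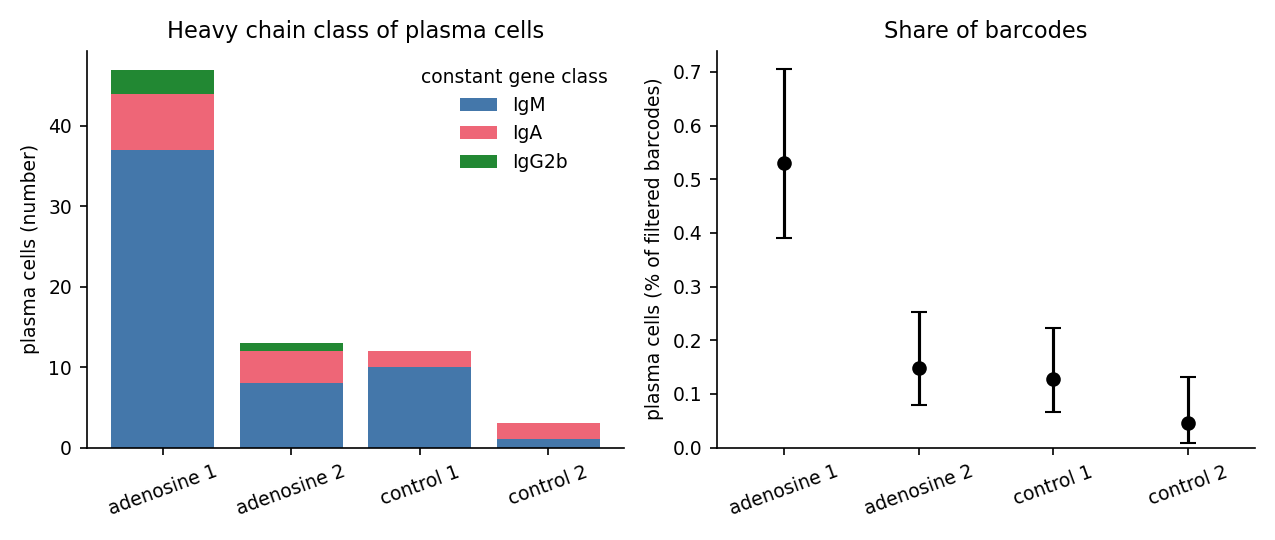
Left: number of plasma cells per library (bar height), coloured by heavy chain class. Right: plasma cells as a percent of filtered barcodes, points with exact binomial 95% intervals. Adenosine 1 stands above the other 3 libraries at 0.530%, and IgM is the largest class in adenosine 1, adenosine 2 and control 1.

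Plasma cell barcodes were deep. Their median was 26552 UMIs in adenosine 1, 25915 in adenosine 2, 28389 in control 1 and 32983 in control 2, while mature B cells of the same libraries had medians between 3988 and 4465. The median plasma cell of adenosine 1 had 3620 genes. The filtered barcodes of whole libraries had medians between 3048 and 5083 UMIs. Between 13 and 28 barcode sequences were shared by each pair of libraries, and 1 plasma cell, in adenosine 1, carried such a barcode.

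The rule's own genes are given as a description. Jchain ran between 8 and 2772 UMIs per plasma cell with a median of 507. Mzb1, a chaperone of the endoplasmic reticulum, had a median of 24, Xbp1 of 23 and Derl3, a factor of protein export from the endoplasmic reticulum for degradation, of 6. No plasma cell stood at the limit for Jchain or Xbp1, 1 stood at it for Mzb1 and 7 for Derl3. Just outside the rule, 8 barcodes failed on Jchain alone, 7 on Derl3 alone, 4 on Mzb1, 1 on Xbp1 and 1 on Siglech. Immunoglobulin genes held over 20% of the UMIs in 7 of the 8 that failed on Jchain and in all 7 that failed on Derl3.

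Markers that the rule did not read were looked at in the same cells. Sdc1, the surface proteoglycan CD138, had at least 1 UMI in 68 of 75 plasma cells, Tnfrsf17, the receptor BCMA, in 51, Prdm1, the transcription factor BLIMP1, in 60 and Irf4 in 71. Every one of the 75 had at least 1 UMI of Sdc1, Tnfrsf17 or Prdm1. Pax5 had no UMI in any of them, which allows up to 4% of cells with a UMI at 3 counts. Cd3e of T cells was seen in 3 and Ms4a1, the B cell surface protein CD20, in 31.

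Neutrophil transcripts marked a few barcodes. More than 100 S100a8 UMIs were found in 3 plasma cells of adenosine 2 and 2 of control 1, and in none of adenosine 1 or control 2. The 8 neutrophil markers summed to 39436 CPM in plasma cells of adenosine 2 and 29906 CPM in those of control 1, and to 3701 and 3749 CPM without these 5 cells. In adenosine 1 the sum was 3459 CPM in plasma cells against 10973 CPM in mature B cells. A doublet score (Scrublet) was among the highest of its library for 11 of 13 plasma cells of adenosine 2, 10 of 12 of control 1 and 1 of 3 of control 2, and for 0 of 47 of adenosine 1. Without these barcodes adenosine 2 and control 1 kept 2 plasma cells each, and adenosine 1 held 88.7% of those left. Of the 5 cells with more than 100 S100a8 UMIs, only the adenosine 2 cell with 1530 had no high score. An IgA cell of adenosine 2 with 7 S100a8 UMIs had a high score. Whether high scores mark doublets among plasma cells was not tested. CPM here are UMIs per 1000000 UMIs outside immunoglobulin genes, unless all UMIs are named.

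Antibody RNA in neutrophil barcodes differed between libraries. Jchain was seen in 13.9% of the 6512 neutrophil barcodes of adenosine 1 (median 3228 UMIs), in 6.12% in adenosine 2 (3687 UMIs), in 3.23% in control 1 (3569 UMIs) and in 0.495% in control 2 (3041 UMIs). Neutrophils do not express it. Their Igkc level was also highest in adenosine 1 and lowest in control 2, with 1967 CPM of all UMIs in adenosine 1, 352 in adenosine 2, 684 in control 1 and 47.9 in control 2. Such sums do not separate free RNA from single barcodes rich in antibody RNA. Ighg2c, for one, had 5086 UMIs in 117 of the 6512 barcodes of adenosine 1. Plasma cells held 82.9%, 92.7%, 93.9% and 98.7% of all Jchain UMIs in adenosine 1, adenosine 2, control 1 and control 2.

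Antibody RNA filled about as much of these cells as all other transcripts together. Immunoglobulin genes took a median of 53.0% of a plasma cell's UMIs in adenosine 1 (24.4 to 76.2%), 52.7% in adenosine 2, 39.7% in control 1 and 59.5% in control 2. In mature B cells the medians lay between 0.888 and 1.51%. At the low end, 3 of the 75 plasma cells were under 20%: an IgA cell of control 2 with 8.30%, an IgA cell of control 1 with 10.6% and an IgM cell of control 1 with 19.6%. The control 1 IgM cell was also the one with the most S100a8, at 2659 UMIs.

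A heavy chain class was given by the constant gene with at least 50% of a cell's heavy constant UMIs, and each of the 75 cells had one. In adenosine 1, 37 of 47 plasma cells were IgM (78.7%, exact binomial 95% interval 64.3 to 89.3%), 7 were IgA (14.9%, 6.20 to 28.3%) and 3 were IgG2b (6.38%, 1.34 to 17.5%). Adenosine 2 had 8 IgM, 4 IgA and 1 IgG2b cells, control 1 had 10 IgM and 2 IgA cells, and control 2 had 1 IgM and 2 IgA cells. IgG1, IgG2c, IgG3, IgD and IgE had no cell among the 75 in any library, and 0 of 75 allows a share of up to 4% for each. These shares and limits hold only for cells with at least 5 Jchain UMIs, as the rule demands. Classes of the 8 barcodes that failed on Jchain alone are not given here, and 7 of them had over 20% immunoglobulin UMIs. The leading class held at least 88.5% of heavy constant UMIs in every cell, so the calls were not close. Kappa was the light chain in 44 of 47 cells of adenosine 1 (93.6%, 82.5 to 98.7%), 11 of 13 of adenosine 2, 10 of 12 of control 1 and 3 of 3 of control 2.

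Variable genes could be read in most cells although the chemistry counts the opposite end of the transcript. A cell of adenosine 1 had a median of 8 UMIs over heavy variable genes and 27 over kappa variable genes. A heavy variable gene was given where it had at least 3 UMIs and at least 2 times those of the next, which held for 39 of 47 plasma cells of adenosine 1, 12 of 13 of adenosine 2, 8 of 12 of control 1 and 3 of 3 of control 2. Variable genes form families of similar sequence, so reads may have been split between near copies, and gene names below are those of the counted gene. Light variable genes were read within the family of the constant chain, because Iglv1 also had UMIs in kappa cells, up to 268.

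The 12 cells of adenosine 2 with a heavy variable gene all had different heavy and light gene pairs. The 39 cells of adenosine 1 had 22 different pairs, and 4 pairs recurred in 21 cells. Ighv11-2 with Igkv14-126 was found in 12 of them, Ighv6-3 with Igkv3-2 in 5, and Ighv1-9 with Igkv17-127 and Ighv9-1 with Igkv6-20 in 2 each. All 21 were IgM. In control 1, Ighv11-2 with Igkv14-126 recurred in 2 cells and Ighv1-9 with Igkv6-14 in 2. In mice, the pairing of Ighv11-2 with Igkv14-126 is known from B-1a cells whose antibodies bind phosphatidylcholine. A 13th adenosine 1 cell had Ighv11-2 as its leading gene with 1 UMI and Igkv14-126 with 20, and is left out of the counts that follow.

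The germline sequences of the genes in this recurrent pair, and of the second kappa gene found beside it, are shown because the results turn on telling them apart. They are the last 240 bases of the annotated GENCODE M21 transcripts on GRCm38, 5′ to 3′. Ighv11-2 lies on the minus strand at chr12:114048241-114048812, Igkv14-126 on the plus strand at chr6:67896172-67896642 and Igkv9-120 on the plus strand at chr6:68049983-68050456, each a variable gene of 2 exons. Capitals in Ighv11-2 mark the stretch from its last TGT, the cysteine codon at the edge of the junction, to the end. Capitals in the kappa genes mark bases that differ between them in a global alignment.
Ighv11-2: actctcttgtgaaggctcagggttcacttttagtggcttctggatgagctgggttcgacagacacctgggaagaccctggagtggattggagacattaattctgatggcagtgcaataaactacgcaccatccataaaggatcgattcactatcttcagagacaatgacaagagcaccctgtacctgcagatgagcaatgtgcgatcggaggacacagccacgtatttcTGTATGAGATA
Igkv14-126: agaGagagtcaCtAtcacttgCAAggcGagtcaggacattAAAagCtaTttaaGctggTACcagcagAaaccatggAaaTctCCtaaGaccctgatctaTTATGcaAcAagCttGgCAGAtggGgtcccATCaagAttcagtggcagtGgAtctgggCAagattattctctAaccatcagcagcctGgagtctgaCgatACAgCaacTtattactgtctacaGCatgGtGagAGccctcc
Igkv9-120: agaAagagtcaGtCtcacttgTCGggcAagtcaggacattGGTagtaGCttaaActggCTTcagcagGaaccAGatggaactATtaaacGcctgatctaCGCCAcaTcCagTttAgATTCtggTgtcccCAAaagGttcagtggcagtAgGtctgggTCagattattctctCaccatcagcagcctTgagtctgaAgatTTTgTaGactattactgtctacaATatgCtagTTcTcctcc
The kappa genes were identical at 182 of 246 aligned positions (74.0%).

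The Ighv11-2 cells of adenosine 1 fell into cells with and without the second kappa gene. All 12 carried Igkv14-126, with 41 to 141 UMIs, and 5 to 55 UMIs of Ighv11-2. Igkv9-120 had 21 to 68 UMIs in 9 of them and 0 in the other 3, which had 41, 83 and 141 UMIs of Igkv14-126. In the 9 cells Igkv9-120 stood at 49.2 to 80.6% of Igkv14-126, with a median of 72.7%. Both Ighv11-2 cells of control 1 had Igkv14-126 alone, with 41 and 40 UMIs. Among the plasma cells led by another heavy gene, 1 had 3 or more UMIs of Igkv9-120 and 1 of Igkv14-126. None of the 52 kappa cells among these with a readable kappa gene had a second kappa variable gene at 50% or more of the first. The limit is not a sharp divide, since the lowest of the 9 cells, at 49.2%, was also under it. Some of the 52 came near it, with 7 against 16 and 8 against 19 UMIs in adenosine 1 and 24 against 59 in control 1. Neutrophil barcodes of adenosine 1 had 2.51 CPM of Igkv14-126 and 1.75 CPM of Igkv9-120, of all UMIs. These UMIs lay in few barcodes, 99 in 16 of 6512 for Igkv14-126 and 69 in 9 for Igkv9-120, so they give no even background level.

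**Figure D2:**
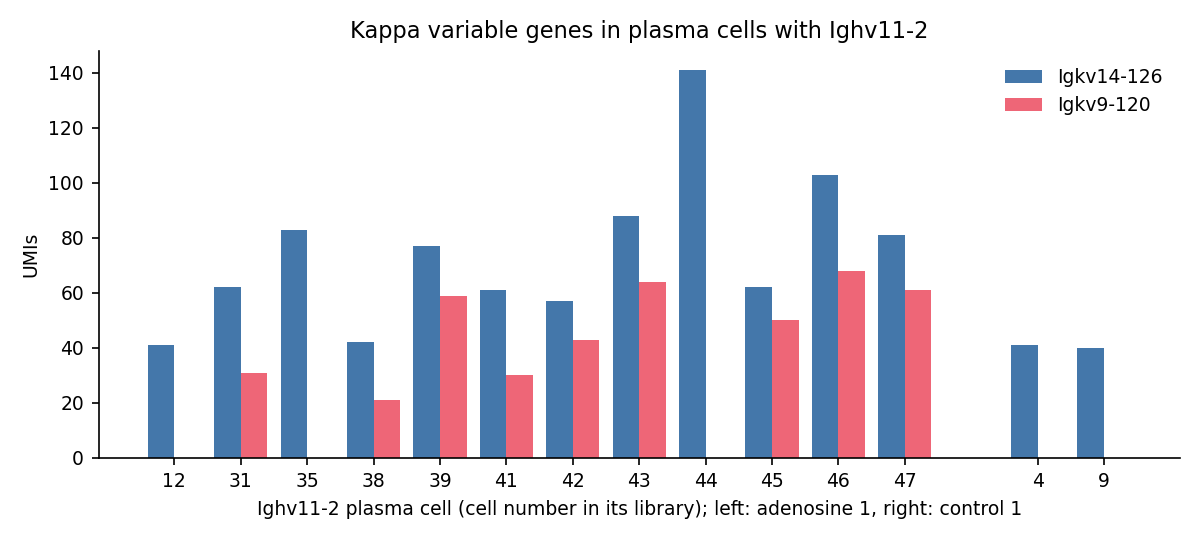
UMIs of Igkv14-126 and Igkv9-120 (bars) in each plasma cell with Ighv11-2, numbered by rising total UMIs within its library, 12 of adenosine 1 on the left and 2 of control 1 on the right. Igkv9-120 stands between 21 and 68 UMIs in 9 cells and at 0 in the other 5.

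Other genes went with the second kappa gene, as read after these values were seen. Nbea, a scaffold of vesicle traffic, had 9 to 79 UMIs in each of the 9 cells with Igkv9-120 and 0 in the 3 without. Cyp2b10, a cytochrome P450, had UMIs in 8 of the 9 (median 16, highest 43) and in none of the 3. Outside Ighv11-2, Nbea was seen in 4 of 34 and Cyp2b10 in 2 of 34 plasma cells of adenosine 1. Neither had a UMI in the plasma cells of adenosine 2 or control 2, and in control 1 Nbea had 1 UMI in 1 Ighv11-2 cell. Among the 34, 1 IgM cell with Ighv6-3 and Igkv5-39 had the most of both, 54 UMIs of Nbea and 29 of Cyp2b10.

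The 12 Ighv11-2 cells of adenosine 1 were set against its 24 IgM cells led by other heavy genes. This comparison was chosen after the variable genes were read, has cells of 1 library on both sides and no test. The Ighv11-2 cells were the deeper, with median totals of 45537 against 22574 UMIs, and more of their UMIs were immunoglobulin (65.2 against 52.9% at the median). Of 2223 genes at 100 CPM or more in the higher set and seen in at least 50% of its cells, 35 were at least 4-fold higher (1.57%) and 34 at least 4-fold lower (1.53%) in the Ighv11-2 cells. The median log2 ratio over the 2223 genes was 0.016. Genes named below are the 10 with the highest and the 10 with the lowest ratio, with Ly6c2 and Jchain added after their values were seen.

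The genes with the highest ratios in the Ighv11-2 cells had varied roles. On the surface and homing list 2 of 10 tested genes were at least 4-fold higher and 1 lower, with a median log2 ratio of -0.30. Negr1, an adhesion molecule best known from neurons, had UMIs in 12 of 12 Ighv11-2 cells (median 23, 1 to 45) and in 3 of 24 other IgM cells (highest 15), or 1350 against 153 CPM of the summed UMIs. Ly6c2, a GPI-anchored surface protein of plasma cells and myeloid cells, had a median of 6856 CPM (1016 to 11711) in Ighv11-2 cells and of 289 CPM (0 to 9663) in other IgM cells, so the ranges overlapped. Neutrophil barcodes of adenosine 1 had Ly6c2 at 936 CPM of all UMIs. Klra17, of the killer cell lectin-like receptor family, had 22 UMIs in 8 of 12 Ighv11-2 cells and 0 in the 24 others. Zfhx3, a homeobox transcription factor, had 49 UMIs in 8 of 12 and 0 in 24. The 3 Ighv11-2 cells without Igkv9-120 had 0, 0 and 1 of these UMIs, so Zfhx3 lay mostly in the cells with both kappa genes. Negr1 and Ly6c2 were seen in all 3 without Igkv9-120, with Ly6c2 at a median of 44 UMIs against 123 in the 9 with it. Dnah11, a dynein heavy chain, had 101 UMIs in 8 of 12 and 6 UMIs in 1 of 24. With every cell thinned to 6355 UMIs outside immunoglobulin genes, Negr1 was seen in 12 of 12 against 3 of 24 cells, Zfhx3 in 7 against 0 and Dnah11 in 8 against 1.

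The genes lower in the Ighv11-2 cells were likewise single genes of different roles. On the survival list 1 of 10 tested genes was at least 4-fold lower, and on the N-glycosylation list none of 12. Bcl2, an inhibitor of apoptosis, had a median of 0 CPM (0 to 262) in Ighv11-2 cells and of 385 CPM (0 to 1933) in other IgM cells. St6gal1, a sialyltransferase, was seen in 3 of 12 Ighv11-2 cells and 23 of 24 other IgM cells, and in 1 and 23 after thinning. The 3 Ighv11-2 cells without Igkv9-120 had 0, 1 and 1 UMIs of St6gal1, and 1 cell with Igkv9-120 had 13. Dnm3, a dynamin, had 0 UMIs in the 12 and 60 UMIs in 15 of the 24. Dgkg, a diacylglycerol kinase, had 1 UMI in the 12 and 62 UMIs in 20 of the 24. Prg2, best known as the eosinophil major basic protein, had 6 UMIs in 5 of 12 and 97 UMIs in 18 of 24. Jchain had a median of 5321 CPM (558 to 26858) in Ighv11-2 cells and of 27725 CPM (2013 to 152911) in other IgM cells, with overlapping ranges. Its median was 57 UMIs in the 9 Ighv11-2 cells with Igkv9-120, 174 in the 3 without and 374.5 in the other IgM cells.

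The 2 Ighv11-2 cells of control 1 shared some of these values and not others. They had 1 and 6 UMIs of Ly6c2, 0 of Negr1, and 1021 and 693 of Jchain, while the 8 other IgM cells of control 1 had medians of 3.5 UMIs of Ly6c2 and 727 of Jchain. Prg2 had 0 UMIs in both and was seen in 7 of the 8 others, with a median of 8.5 UMIs. Bcl2 had 9 and 1 UMIs in the pair, and St6gal1 had 8 and 1. Library and treatment cannot be told apart for the pattern in adenosine 1.

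IgA plasma cells were set against IgM cells in the same way. In adenosine 1, 2052 genes passed the same limits between the 7 IgA cells and the 24 IgM cells without Ighv11-2, of which 13 were at least 4-fold higher (0.634%) and 53 at least 4-fold lower (2.58%) in IgA cells, with a median log2 ratio over all of -0.21. Depths were close, with median totals of 22667 UMIs in IgA cells and 22574 in the IgM cells. Jchain is a gene of the rule, which took no cell under 5 UMIs, so its levels are a description. It had a median of 195022 CPM (149180 to 214549) in the IgA cells and 27725 CPM (2013 to 152911) in the IgM cells. Over the summed UMIs Jchain took 183464 CPM in the IgA cells and 40238 CPM in the IgM cells. It is part of the total, so it lowers the CPM of all other genes more in IgA cells. Its part in the median of -0.21 was not tested. In adenosine 2 the medians were 177598 CPM in 4 IgA cells and 81639 CPM in 8 IgM cells. The 2 IgA cells with the least immunoglobulin RNA, in control 1 and control 2, had 10707 and 11287 CPM of Jchain, below their partners at 220563 and 185877 CPM.

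The genes with the highest ratios in IgA cells were single genes of different roles. On the surface and homing list 1 of 11 tested genes was at least 4-fold higher and 1 lower, with a median log2 ratio of 0.074. Ccr10, the chemokine receptor known to guide IgA plasma cells to mucosal tissue, was seen in 5 of 7 IgA cells and 0 of 24 other IgM cells of adenosine 1. Over the 4 libraries it was seen in 10 of 15 IgA cells and 5 of 60 others. In adenosine 1 neutrophil barcodes Ccr10 was seen in 8 of 6512. Runx2, the transcription factor best known from bone-forming cells, was seen in 7 of 7 IgA cells and 5 of 24 IgM cells of adenosine 1, and in 14 of 15 against 23 of 60 over all libraries. It was also seen in 10 of 12 Ighv11-2 cells and in 39.3% of neutrophil barcodes of adenosine 1, whose median depth was 3228 UMIs. Vpreb3, a chaperone-like protein of the B lineage, was seen in 12 of 15 IgA cells and 14 of 60 others, among them 3 of 4 IgG2b cells and 7 of the 12 Ighv11-2 cells of adenosine 1. Vpreb3 was seen in 34 of the 6512 neutrophil barcodes. Cd28, a costimulatory receptor, was not among the highest ratios and was short of 4-fold in adenosine 1, at 348 against 108 CPM of the summed UMIs. It was seen in 11 of 15 IgA cells and 22 of 60 others over all libraries, but in 1 of 4 IgA and 2 of 8 IgM cells of adenosine 2.

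Several genes common in the other plasma cells, or in the other IgM cells, had few or no UMIs in IgA cells. Chst1, a carbohydrate sulfotransferase, had 0 UMIs in all 15 IgA cells, which allows up to 20% of IgA cells with a UMI, and 332 UMIs in 51 of the 60 others. Neutrophil barcodes of adenosine 1 had it in 48 of 6512. In adenosine 1 it stood at 361 CPM in the 24 IgM cells, 497 CPM in Ighv11-2 cells and 616 CPM in IgG2b cells, and in adenosine 2 at 392 CPM in 8 IgM cells. Spon1, an extracellular matrix protein, had 1 UMI in 1 of 15 IgA cells and 190 UMIs in 41 of the 60 others. Ubash3b, a phosphatase, had 0 UMIs in the 7 IgA cells and 101 UMIs in 15 of the 24 IgM cells of adenosine 1. It was less common in other groups there, seen in 4 of 12 Ighv11-2 cells and 1 of 3 IgG2b cells. Rims2, a regulator of vesicle release, had 0 UMIs in the same 7 cells and 97 UMIs in 16 of the 24. St6gal1, by contrast, was seen in 7 of 7 IgA cells, at 1258 CPM of the summed UMIs against 617 CPM in the IgM cells.

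The 3 IgG2b cells of adenosine 1 had the most Slpi, a secreted inhibitor of serine proteases. They carried 502, 798 and 2104 UMIs, a median of 55459 CPM, while the medians were 2896 CPM in other IgM cells (0 to 19393), 2451 CPM in IgA cells and 2210 CPM in Ighv11-2 cells. The IgG2b values lay above all others of adenosine 1. The IgG2b cell of adenosine 2 had 356 UMIs, or 18295 CPM, and an IgM cell there had 188644 CPM. Neutrophil barcodes of adenosine 1 had Slpi at 877 CPM of all UMIs.

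**Figure D3:**
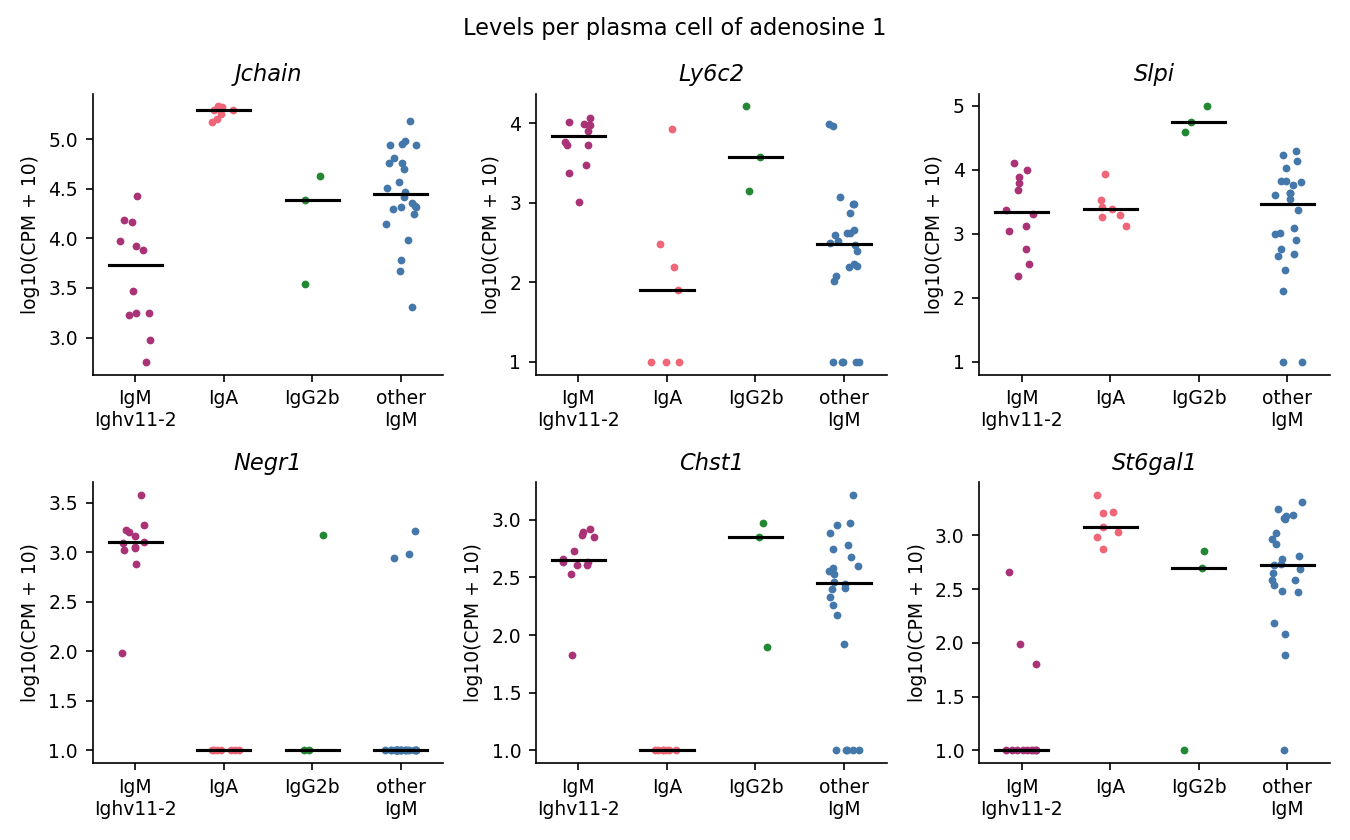
Levels of 6 genes in each plasma cell of adenosine 1 as log10 of CPM (outside immunoglobulin genes) plus 10, by group: 12 IgM cells with Ighv11-2, 7 IgA, 3 IgG2b and 24 other IgM cells. Points are cells, lines medians; the cell with 1 UMI of Ighv11-2 is not shown. Chst1 is at 0 CPM in all 7 IgA cells, and Negr1 is at 0 in 21 of the 24 other IgM cells.

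The plasma cells of adenosine 1 were then set against its 277 mature B cells, which had Cd79a, Ms4a1 and Ighd, at most 1 Jchain UMI and no UMI of Rag1, Dntt, Vpreb1 or Igll1. Since these genes chose the cells, the comparison is a description with no test. UMIs outside immunoglobulin genes were summed to 600749 in plasma cells and 1565434 in B cells, and 10 CPM were added before taking ratios. Of 7553 genes at 20 CPM or more, 315 were at least 4-fold higher (4.17%) and 408 at least 4-fold lower (5.4%) in plasma cells. With all UMIs as the total, which includes antibody RNA, 116 were higher and 998 lower, and the median over the 7553 genes shifted by -0.85 on the log2 scale. The median log2 ratio over all 7553 genes was -0.23. Among the lower genes were markers of other cell types. Of those tested, they were 3 of 4 for granulocyte-monocyte progenitors, 3 of 6 for monocytes and macrophages, 2 of 4 for erythroid cells and 1 of 7 for neutrophils. The B cell barcodes were shallower, and the part of free RNA in these ratios was not tested.

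Genes of protein folding in the endoplasmic reticulum were higher in plasma cells. Of 26 listed, 20 were at least 4-fold higher and none lower, with a median log2 ratio of 3.19, and 14 with all UMIs as the total. Mzb1, 1 of the 20, is a gene of the rule, so its place among them was set by the choice of cells. Hsp90b1, the chaperone GRP94, had 5348, 2550, 4811 and 4505 CPM in plasma cells of adenosine 1, adenosine 2, control 1 and control 2, against 166, 157, 168 and 179 CPM in B cells. Creld2, an induced chaperone, had 1503, 635, 683 and 668 CPM in plasma cells against 18.5, 10.9, 9.58 and 26.7 CPM in B cells. Plasma cells were above B cells for both in all 4 libraries. Txndc5, a disulfide isomerase, had 2993 CPM against 93.9 CPM in adenosine 1, and Hspa5, the chaperone BiP, 2808 against 143 CPM. Ero1lb, an oxidase of the same compartment, stood at 250 CPM in plasma cells and 283 CPM in B cells.

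The other steps of secretion were also represented. Of 17 genes of degradation from the endoplasmic reticulum, 11 were at least 4-fold higher (5 with all UMIs as the total), among them Sel1l with 1854 against 65.8 CPM and Edem1 with 1526 against 82.4 CPM. Derl3, also among the 11, is a gene of the rule. Of 22 genes of translocation and signal peptide removal, 12 were higher (4 with all UMIs), led in level by Ssr4, a translocon subunit, with 2535 against 116 CPM. Of 20 genes of transport to the Golgi 5 were higher (2 with all UMIs), such as Lman1, a cargo receptor, with 486 against 29.4 CPM. Of 14 N-glycosylation genes 2 were, with a list median of 1.51 on the log2 scale, and none with all UMIs. None of these 4 lists had a gene at least 4-fold lower.

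Promoters of the folding genes were searched for the motif that XBP1 and ATF6 are known to bind, the endoplasmic reticulum stress element, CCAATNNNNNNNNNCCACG, on both strands. The window was 250 bases before to 50 after the gene start in RefSeq, GRCm38.p6. A match was found for 7 of 20 matched folding genes (Hspa5, Hsp90b1, Pdia6, Calr, Canx, Dnajc3 and Creld2) and for Derl3 and Syvn1 among 15 degradation genes, while 0.137% of all 27025 gene symbols had one. Among matched genes of translocation (16), Golgi transport (16) and N-glycosylation (13) none had one. Of the 7 folding genes, Canx was not past the fold, with 276 CPM in plasma cells against 177 CPM in B cells. The core TGACGTGG was found for 2 of the 20 folding genes, Txndc5 and Txndc11, for 2 of 15 degradation genes, 2 of 16 Golgi transport genes and 0.714% of all symbols, and the octamer ATGCAAAT for none of the 20 and 1.97% of all symbols. A match describes letters, not a bound site.

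The 250 bases before the start are shown for 3 of these genes, Hspa5 and Creld2 of the folding list and Derl3 of the rule, 5′ to 3′ along the gene, with the match in capitals. All are on the plus strand of GRCm38.p6, Hspa5 at chr2:34771840-34772089, Creld2 at chr15:88819396-88819645 and Derl3 at chr10:75893148-75893397. In Creld2 and Derl3 the match reads on the opposite strand.
Hspa5: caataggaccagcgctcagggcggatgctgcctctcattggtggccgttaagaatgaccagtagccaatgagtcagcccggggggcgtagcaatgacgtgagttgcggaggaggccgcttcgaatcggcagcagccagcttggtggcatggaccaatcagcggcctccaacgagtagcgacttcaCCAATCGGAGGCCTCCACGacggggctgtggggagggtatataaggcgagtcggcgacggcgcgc
Creld2: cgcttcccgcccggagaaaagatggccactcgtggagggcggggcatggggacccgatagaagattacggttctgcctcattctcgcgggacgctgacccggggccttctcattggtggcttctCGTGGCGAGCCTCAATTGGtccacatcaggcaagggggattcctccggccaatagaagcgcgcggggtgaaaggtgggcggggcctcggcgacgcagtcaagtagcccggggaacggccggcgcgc
Derl3: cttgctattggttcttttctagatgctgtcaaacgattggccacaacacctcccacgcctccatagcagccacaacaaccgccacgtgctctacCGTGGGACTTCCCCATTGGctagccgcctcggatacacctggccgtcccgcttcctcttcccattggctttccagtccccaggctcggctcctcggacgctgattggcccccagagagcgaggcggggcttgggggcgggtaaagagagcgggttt

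Regulators of the plasma cell state were higher. Of 13 listed genes of transcription and RNA processing 7 were at least 4-fold higher, 6 with all UMIs as the total, with a median log2 ratio of 2.91. Xbp1, 1 of the 7, is a gene of the rule. Tent5c, a poly(A) polymerase that acts on antibody mRNA, had 872, 492, 434 and 325 CPM in plasma cells of adenosine 1, adenosine 2, control 1 and control 2, against 5.11, 4.58, 3.99 and 0 CPM in B cells. Ell2, an elongation factor that favours the secreted form of heavy chain mRNA, had 1134 against 88.2 CPM in adenosine 1, Prdm1 318 against 12.1 CPM and Irf4 536 against 50.5 CPM. Zbtb20 stood at 1443 CPM in plasma cells and 1610 CPM in B cells.

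B cell factors were lower. Of 15 identity factors 11 were at least 4-fold lower, 13 with all UMIs, with a median log2 ratio of -3.13 and none higher. Pax5 had 0 UMIs in plasma cells of every library against 1066, 908, 1071 and 667 CPM in B cells of adenosine 1, adenosine 2, control 1 and control 2. Taking 3 counts over the plasma cells as the limit, it was at least 213-fold lower in plasma cells of adenosine 1. Ebf1 had 256 against 4445 CPM and Bcl11a 1.66 against 1147 CPM. Ikzf1 stood at 461 against 1002 CPM and Tcf3 at 94.9 against 114 CPM, short of the fold.

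Antigen presentation and receptor genes were lower, with exceptions. Of 10 genes of MHC class II presentation 9 were at least 4-fold lower, also with all UMIs, such as H2-Aa with 41.6 against 2305 CPM. Cd74, the invariant chain, was the exception, with 4068, 8065, 5383 and 5421 CPM in plasma cells against 4969, 9372, 7547 and 12206 CPM in B cells. Of 16 genes of B cell receptor signalling 10 were lower (13 with all UMIs), among them Cd22 with 0 against 247 CPM and Lyn with 122 against 1446 CPM. Ms4a1, also among the 10, was required of the B cells. Cd79a, a signalling chain of the receptor that also chose the B cells, stood at 741 against 1257 CPM and Blnk, an adaptor, at 531 against 629 CPM.

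**Figure D4:**
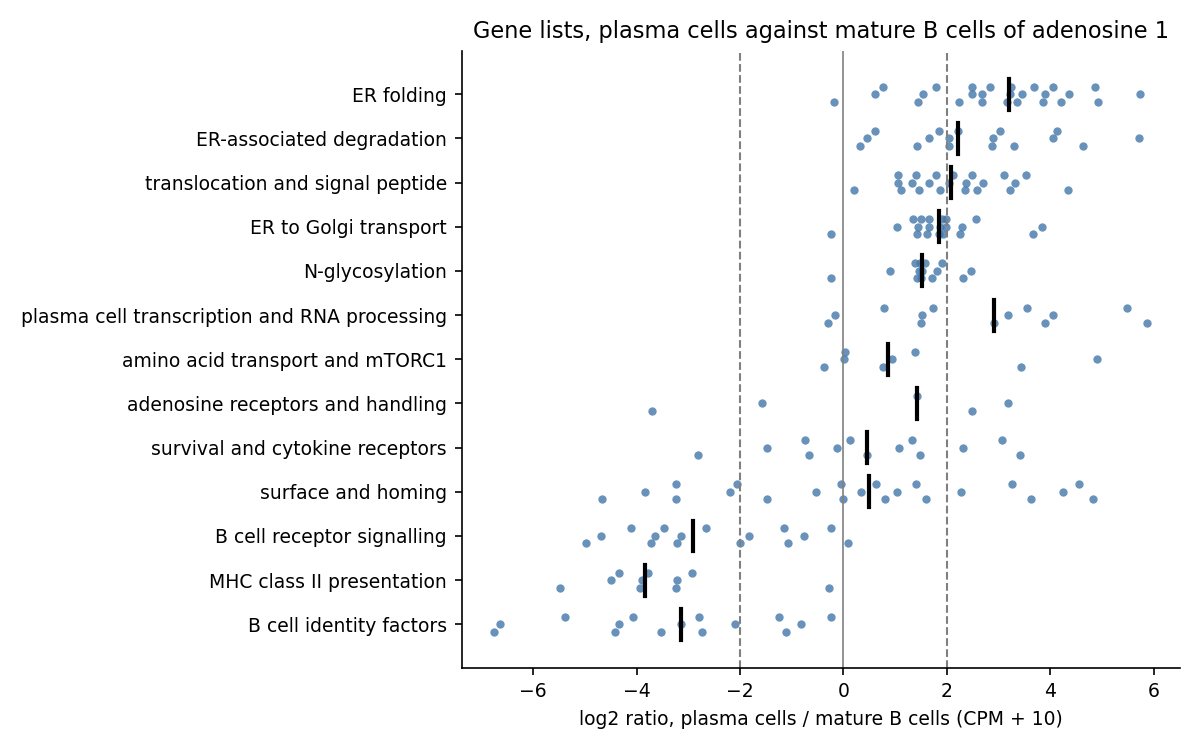
Log2 ratio of plasma cells to mature B cells of adenosine 1 (CPM outside immunoglobulin genes plus 10) for each gene at 20 CPM or more in 13 gene lists. Points are genes, thick lines list medians, dashed lines the 4-fold limits. The folding list has 20 of 26 genes beyond the upper limit and the MHC class II list 9 of 10 beyond the lower.

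Receptors for survival signals gave a mixed picture. Tnfrsf17 had 96.5, 184, 143 and 229 CPM in plasma cells of adenosine 1, adenosine 2, control 1 and control 2, and 0 UMIs in B cells of all 4 libraries, so that it was at least 50.4-fold higher in plasma cells of adenosine 1 at a limit of 3 counts over the B cells. Tnfrsf13b, the receptor TACI, had 473 against 164 CPM in adenosine 1, and Tnfrsf13c, the BAFF receptor, 76.6 against 127 CPM. Of 14 listed survival and cytokine receptor genes 13 were tested, of which 3 were higher and 1 lower past the fold, 2 and 1 with all UMIs. Bcl2 stood at 303 against 517 CPM and Mcl1, another survival protein, at 484 against 352 CPM. Ligands of these receptors in the remaining barcodes were at 29.1, 37.8, 40.0 and 29.3 CPM of all UMIs for Tnfsf13 (APRIL) and 40.0, 41.2, 46.2 and 18.4 CPM for Tnfsf13b (BAFF) in adenosine 1, adenosine 2, control 1 and control 2. Cxcl12, a retention chemokine of marrow, had at most 33 UMIs in a library.

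Surface and homing genes differed in both directions. Of 24 listed, 22 were tested, of which 6 were higher and 6 lower past the fold. With all UMIs as the total 20 were tested, of which 5 were higher and 7 lower. Sdc1 had 286, 148, 189 and 172 CPM in plasma cells of adenosine 1, adenosine 2, control 1 and control 2, against 2.56, 1.06, 0 and 0 CPM in B cells. Epcam, an adhesion molecule, had 398, 77.1, 64.6 and 57.3 CPM against 4.47, 5.64, 5.59 and 7.62 CPM. Cd38, a surface enzyme, had 13.3 against 323 CPM in adenosine 1. Itga4, an integrin chain, stood at 419 against 432 CPM.

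**Figure D5:**
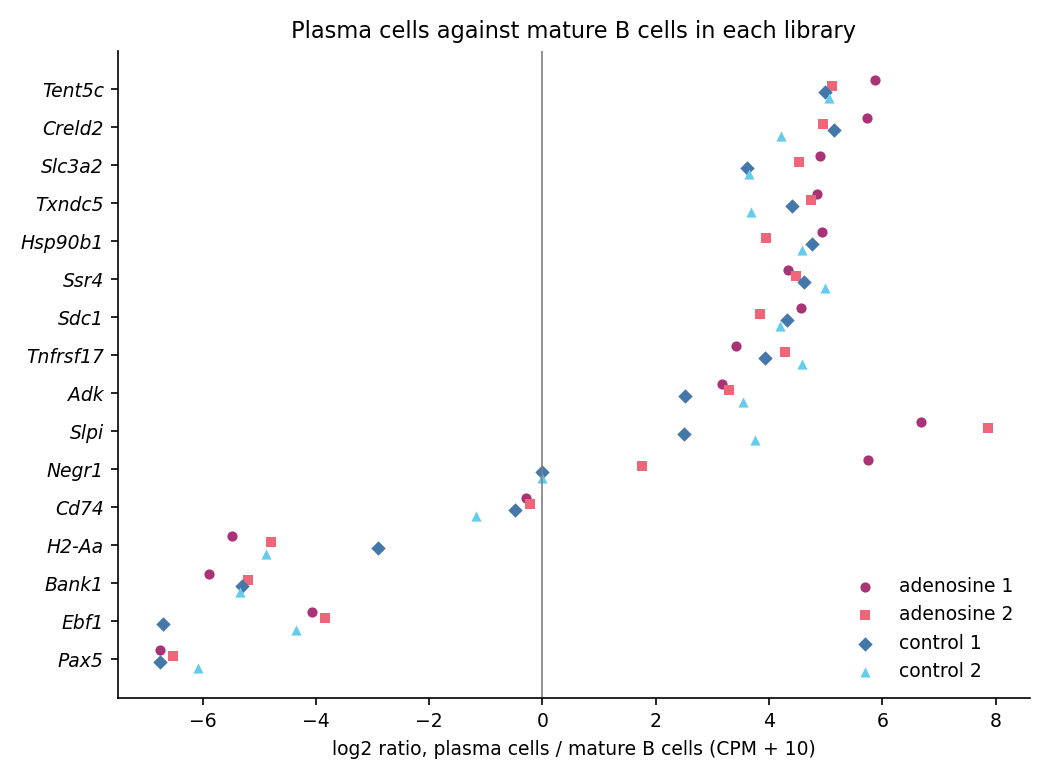
Log2 ratio of plasma cells to mature B cells (CPM outside immunoglobulin genes plus 10) for 16 genes, 1 point per library. Negr1 is high in adenosine 1 at 5.75 and lies at 0 in both control libraries, while Pax5 lies below -6 in all 4 libraries. In adenosine 1 Negr1 was seen in 12 of 12 Ighv11-2 cells and in 4 of the 34 plasma cells outside Ighv11-2.

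Among genes past the fold in adenosine 1, the other libraries mostly had the same sign. Of the 315 higher genes 90.8% were above 0 in adenosine 2, 89.8% in control 1 and 79.4% in control 2, and of the 408 lower genes 97.3%, 93.1% and 91.2% were below 0. Each library was set against its own B cells. Over all 7553 tested genes 39.5% were above 0 in adenosine 1, so a sign below 0 was the more common one there. The share over all genes in the other libraries is not given here. Cped1, Cpeb3, Nbea, Negr1, Cyp2b10 and Ptges were among the 12 highest in adenosine 1, and the other libraries held less of each. Cped1 had 638 CPM in plasma cells of adenosine 1, 136 in adenosine 2, 101 in control 1 and 115 in control 2. Cyp2b10 had 335 CPM in adenosine 1 and 0 UMIs in the plasma cells of the other 3. In adenosine 1, Nbea, Cped1, Negr1 and Ptges were seen in all 9 Ighv11-2 cells with Igkv9-120, and Cyp2b10 in 8 of them. Among its 34 plasma cells outside Ighv11-2, Nbea was seen in 4, Cped1 in 22, Negr1 in 4, Ptges in 17 and Cyp2b10 in 2. Adenosine 2 and control 2 had 0 cells given Ighv11-2.

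Of 11 listed genes of adenosine receptors and handling 5 were tested, of which 2 were higher and 1 lower past the fold, 1 and 1 with all UMIs as the total. Adora1, Adora2b and Adora3 had 0 UMIs in plasma cells of adenosine 1, which allows up to 4.99 CPM at 3 counts, and Adora2a had 4 UMIs in 3 of 47 cells, or 6.66 CPM against 15.3 CPM in B cells. Adk, the kinase that turns adenosine into AMP, had 944, 617, 415 and 458 CPM in plasma cells of adenosine 1, adenosine 2, control 1 and control 2, against 95.8, 53.9, 64.6 and 30.5 CPM in B cells. Ada, the deaminase, had 59.9 against 2.56 CPM and Entpd1, the ectonucleotidase CD39, 226 against 78.6 CPM in adenosine 1. Dpp4, also on the list, had 3.33 against 164 CPM. Nt5e, which makes adenosine from AMP, had 4.99 against 34.5 CPM and the transporter Slc29a1 3.33 against 14.1 CPM. Adk levels in plasma cells of the adenosine and control libraries were not tested against each other.

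Division was rare. With each cell thinned to 2000 UMIs outside immunoglobulin genes, 1 of 47 plasma cells of adenosine 1 had 3 or more of 10 division genes (2.13%, exact binomial 95% interval 0.0539 to 11.3%), against 5 of 266 mature B cells (1.88%, 0.613 to 4.33%). Adenosine 2, control 1 and control 2 had 1 such plasma cell each, of 13, 12 and 3. Mature B cells of these libraries had 8 of 571, 0 of 248 and 0 of 56. The plasma cell shares there, 7.69, 8.33 and 33.3%, were above the 1.40, 0 and 0% of B cells but rest on 1 cell each. Unthinned, the counts were 3 of 47, 4 of 13, 4 of 12 and 1 of 3. They include 2 cells of adenosine 2 and 1 of control 1 that had 1530, 528 and 2659 S100a8 UMIs, with 7, 3 and 8 division genes, and the part of neutrophil RNA in this was not tested. The control 2 cell was IgA, had UMIs of all 10 genes, with 24 of Mki67 and 49 of Top2a, and was the cell with the least immunoglobulin RNA. An IgM cell of control 1 also had UMIs of all 10 genes, with 9 of Mki67, 9 of Top2a and 19 of S100a8. Neutrophil barcodes reached 13.1% in adenosine 1 and are no background for division. Of the 13 genes on the list of PERK and ATF4 targets, the stress branch apart from XBP1, 9 passed 20 CPM and 3 were at least 4-fold higher, none with all UMIs as the total. Phgdh, of serine synthesis, was past the fold with 251 against 30.7 CPM in adenosine 1. Ddit3, which encodes CHOP, was short of it with 49.9 against 7.03 CPM.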

How the data were processed

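The deposited files are raw UMI counts per gene and barcode, made by the authors with Cell Ranger 7.0.0 on mm10, per the file headers and the submitters' processing notes, which also name bcl2fastq. Which annotation release was used, and whether intronic reads were counted, is not given in these sources. Libraries were made with a droplet 3′ kit, per the labels, and held 59503381 (adenosine 1), 68117846 (adenosine 2), 58453640 (control 1) and 32277757 (control 2) UMIs. Barcodes needed 200 genes and under 10% mitochondrial UMIs.

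From these counts, 427 immunoglobulin genes (GENCODE M21, matched by gene identifier, 32158 of 32285 genes matched) were left out of the totals for CPM. Intervals for shares are exact binomial at 95% and cover counting error only. Cells are not replicates, so no p-value was computed. Doublets were not removed. Scrublet in scanpy 1.11.5 scored each library, and the highest scores (0.8% for each 1000 barcodes) were left out as an alternative. The ratio script was tested on simulated data. Named genes are the 12 highest and 12 lowest ratios at 100 CPM or more, up to 6 members of a list by level and 3 by lowest ratio, and the receptors. Members and gene lists were chosen with earlier results of these data known. Python 3.11.15, numpy 2.4.6 and scipy 1.17.1 were used. Some genes are not reported here.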

Additional observations from a re-analysis of the deposited data

How the results depend on the processing

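No paired analysis was possible because the results come from no test. Without the highest Scrublet scores, adenosine 2 and control 1 kept 2 plasma cells each and the share held by adenosine 1 came to 88.7%, as no plasma cell of adenosine 1 was among those scores. Leaving out another library gave a share of 65.3 to 75.8%. Pooled over libraries with 1 left out, IgA took 17.7 to 28.6% of plasma cells, the highest without adenosine 1. Of genes past 4-fold against B cells, 116 were higher and 998 lower with all UMIs as the total, 496 and 785 with a pseudocount of 1 CPM, and 111 and 122 with 50 CPM, while 628 were lower against plasmacytoid dendritic cells. Pooled with 1 library left out, 229 to 293 were higher and 306 to 333 lower. Top2a, at -2.11 on the log2 scale in adenosine 1, came to 0.32 with all libraries pooled, and to 1.46 without adenosine 1, 0.85 without adenosine 2 and 0.031 without control 1. No plasma cell of adenosine 1 (0%) had 5 or more division genes. For Ighv11-2 cells against other IgM cells, chosen after seeing the data, 8 genes were higher with all UMIs, 9 with 50 CPM and 58 from 20 CPM on, and 14 were lower with 50 CPM. For IgA cells, 5 were higher and 16 lower with all UMIs, 4 and 11 with 50 CPM, 81 lower with 1 CPM and 104 lower from 20 CPM on. The other 125 values of the main results stayed within their limits. Control 2, with 3 plasma cells, limits what can be read from it: 3 counts are 57.3 CPM there, against 4.99 CPM in adenosine 1.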
